A study of Zea mays with 6 samples.

Results

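The genes described here are 4 regulators of organ boundaries in maize, namely the NAC genes nam1 (GRMZM2G139700), nam2 (GRMZM2G393433) and cuc3 (GRMZM2G430522) and the LOB-domain gene ig1 (indeterminate gametophyte1, GRMZM2G118250). They were taken by identifier, and all 4 were found among the 39305 gene rows of the deposited table and passed the filter on low values, which 21924 rows passed. Transcripts were measured in 3 libraries from Bif1;Bif4 double heterozygous mutant tassels, each a pool of 10 tassels, and in 3 libraries from wildtype tassels, each a pool of 5. All plants were of the B73 background and grown in a greenhouse, and the tassels, the male inflorescences, were 2 to 4 mm long. Bif1 and Bif4 (Barren inflorescence) are dominant alleles of Aux/IAA genes, whose proteins repress auxin-responsive transcription. Nothing in the labels says whether the pools of a genotype were grown apart, so the p-values measure the spread between pools, which may be in part technical.

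NAC proteins of the CUC (Cup-Shaped Cotyledon) group are transcription factors made in the narrow strip of cells between a meristem and the organ it forms, or between neighbouring organs. In Arabidopsis they hold back growth in that strip, keep organs from fusing and are needed for meristems to form in the axils, and the members CUC1 and CUC2 are trimmed by the microRNA miR164. nam1 and nam2 are the maize genes of the CUC1 and CUC2 type, and cuc3 is the maize counterpart of CUC3. ig1 is the maize relative of Arabidopsis AS2 (Asymmetric Leaves2), a LOB-domain protein that acts with the MYB protein AS1, whose maize counterpart is rs2 (rough sheath2), to keep KNOX meristem genes off in leaves. The ig1 mutant is best known for embryo sacs that divide too often.

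The libraries held 23066609 to 23431863 reads in Bif1;Bif4 and 21047225 to 24636859 reads in wildtype, recovered from the deposited normalized counts, which are reads per gene divided by a size factor for each library. No libraries were near duplicates, since the chi-square per degree of freedom between pools of a genotype was 10.4 to 11.8 in Bif1;Bif4 and 11.5 between wildtype replicates 1 and 3. Wildtype replicate 2 stood apart, at 26.0 and 24.5 against wildtype replicates 1 and 3, so values without it are given below. BIF1 (GRMZM2G130953) was at 267, 166 and 158 normalized counts in Bif1;Bif4 and 650, 818 and 748 in wildtype, and BIF4 (GRMZM5G864847) at 280, 151 and 229.9 in Bif1;Bif4 and 346, 405 and 350 in wildtype. The alleles change the proteins, so these levels do not check the genotype. The meristem marker kn1 (knotted1, GRMZM2G017087) was at 6797 to 7882 in Bif1;Bif4 and 8630 to 9258 in wildtype. The summed level of 5 meristem markers, kn1 included, was 8766 to 10562 in Bif1;Bif4 and 11371 to 11950 in wildtype, and most of it was kn1. Without kn1 the other 4 summed to 1970 to 2758 in Bif1;Bif4 and 2354 to 2884 in wildtype, which overlap, and they went opposite ways: fea3 (GRMZM2G166524) rose (log2 fold change 1.21, limma adjusted p = 0.0093), TD1 fell, and FEA4 and fea2 did not pass. The summed level of 11 leaf photosynthesis markers was 1416 to 1766 in Bif1;Bif4 and 1220 to 1407 in wildtype. Pep1 (GRMZM5G899080) held the largest part, at 665 to 815 in Bif1;Bif4 and 566 to 579 in wildtype. It was the only tested leaf marker whose groups did not overlap. ssu1, pep1 (GRMZM2G083841), me3 and lhcb4 had lower means in Bif1;Bif4 than in wildtype, and the other leaf markers had higher means. The part of the meristem and leaf markers in the results was not tested. Of the 8 leaf markers tested, none passed limma, edgeR or DESeq2, and 1 had an unadjusted limma p under 0.05. The anther genes ms23 (GRMZM2G021276) and ms8 (GRMZM2G119265) had at most 1 read in any library. ocl4 (GRMZM2G123140), which is both an anther and an outer cell layer marker, fell, at 1994 to 2148 in Bif1;Bif4 and 2762 to 3262 in wildtype (log2 fold change -0.53, limma adjusted p = 0.011). The 4 outer cell layer markers summed to 5501 to 5892 in Bif1;Bif4 and 6088 to 7105 in wildtype. Every mutant pool lay below every wildtype pool for 3 of them, as for 14.2% of all tested genes, and ocl1 overlapped. By limma and edgeR ocl4 alone passed, whereas DESeq2 also called ocl5 (GRMZM2G130442) and ocl3 (GRMZM2G116658) fallen (DESeq2 adjusted p = 0.023 and 0.027). The part of the outer layer markers in the results was not tested either. The pools of the genotypes also differ in their number of tassels, which cannot be told apart from genotype.

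All 4 boundary genes fell in Bif1;Bif4 tassels, nam1 and nam2 to 16.6% and 20.4% of the wildtype mean and cuc3 and ig1 to 40.9% and 38.7%. In whole tassels, fewer boundary cells and less transcript per boundary cell cannot be told apart. For nam1, Bif1;Bif4 replicates 1 to 3 held 46.6, 22.8 and 61.6 normalized counts, and wildtype replicates 1 to 3 held 195, 414 and 183. Every mutant pool lay below every wildtype pool, and the lowest wildtype value was 2.96 times the highest mutant value. The nam1 mean was 43.7 ± 19.6 in Bif1;Bif4 and 264 ± 130.0 in wildtype (SD, n = 3 pools each), or 16.6% of wildtype. The log2 fold change of nam1 was -2.57 (SE 0.45, 95% interval -3.63 to -1.51, limma adjusted p = 0.025). Without wildtype replicate 2, the highest nam1 value, the mean was 23.2% of wildtype and nam1 still fell (limma log2 fold change -2.19, adjusted p = 0.019). Without Bif1;Bif4 replicate 1, wildtype replicate 1 or wildtype replicate 3 the nam1 call was lost (limma adjusted p = 0.081, 0.058 and 0.054), with log2 fold changes of -2.67, -2.74 and -2.78.

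nam2, the more deeply counted of the CUC2-type pair, held 189, 127 and 268 normalized counts in Bif1;Bif4 replicates 1 to 3 and 730.0, 1344 and 787 in wildtype replicates 1 to 3. The groups again did not overlap, with 2.72 times between the lowest wildtype and the highest mutant pool. The nam2 mean was 195 ± 70.6 in Bif1;Bif4 and 954 ± 339 in wildtype, or 20.4% of wildtype. nam2 fell by 2.29 on the log2 scale (SE 0.34, 95% interval -3.12 to -1.47, limma adjusted p = 0.019). Without wildtype replicate 2 the nam2 mean was 25.7% of wildtype and the call held (limma log2 fold change -2.02, adjusted p = 0.015). The nam2 call was lost without Bif1;Bif4 replicate 1 or wildtype replicate 3 (limma adjusted p = 0.074 and 0.055). How the counting treated reads shared by close copies is not given in the sources used here, so the split of reads between nam1 and nam2 is uncertain where their sequences match.

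cuc3, the third NAC gene, fell less, and its mutant pools were close to each other. It held 335, 279 and 340.5 normalized counts in Bif1;Bif4 replicates 1 to 3 and 562, 1029.7 and 742 in wildtype replicates 1 to 3. The lowest wildtype pool was 1.65 times the highest mutant pool, the narrowest gap of the 4 genes. The cuc3 mean was 318 ± 34.0 in Bif1;Bif4 and 778 ± 236 in wildtype, or 40.9% of wildtype, a log2 fold change of -1.25 (SE 0.21, 95% interval -1.74 to -0.75, limma adjusted p = 0.021). Without wildtype replicate 2 cuc3 was at 48.8% of wildtype (limma log2 fold change -1.02, adjusted p = 0.0065). Without Bif1;Bif4 replicates 1, 2 or 3 or wildtype replicate 3 the cuc3 call was lost (limma adjusted p = 0.073, 0.085, 0.059 and 0.074).

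ig1 was the gene with the fewest reads of the 4, at 32, 18 and 29 reads in Bif1;Bif4 and 57, 82 and 60 reads in wildtype. In normalized counts ig1 stood at 31.1, 17.9 and 28.4 in Bif1;Bif4 replicates 1 to 3 and at 62.8, 75.1 and 61.9 in wildtype replicates 1 to 3. The groups did not overlap, with 1.99 times between the nearest pools, and the exact Poisson intervals of those nearest pools, which cover counting error only, were 21.3 to 43.9 in Bif1;Bif4 replicate 1 and 47.2 to 79.7 in wildtype replicate 3. The ig1 mean was 25.8 ± 6.98 in Bif1;Bif4 and 66.6 ± 7.36 in wildtype, or 38.7% of wildtype. ig1 fell by 1.37 on the log2 scale (SE 0.27, 95% interval -1.99 to -0.74, limma adjusted p = 0.029). It was at 41.4% of wildtype without wildtype replicate 2, where its call only just held (limma adjusted p = 0.0499). Leaving out any other library ended the ig1 call (limma adjusted p = 0.058 to 0.083), with log2 fold changes from -1.52 to -1.13.

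**Figure D1:**
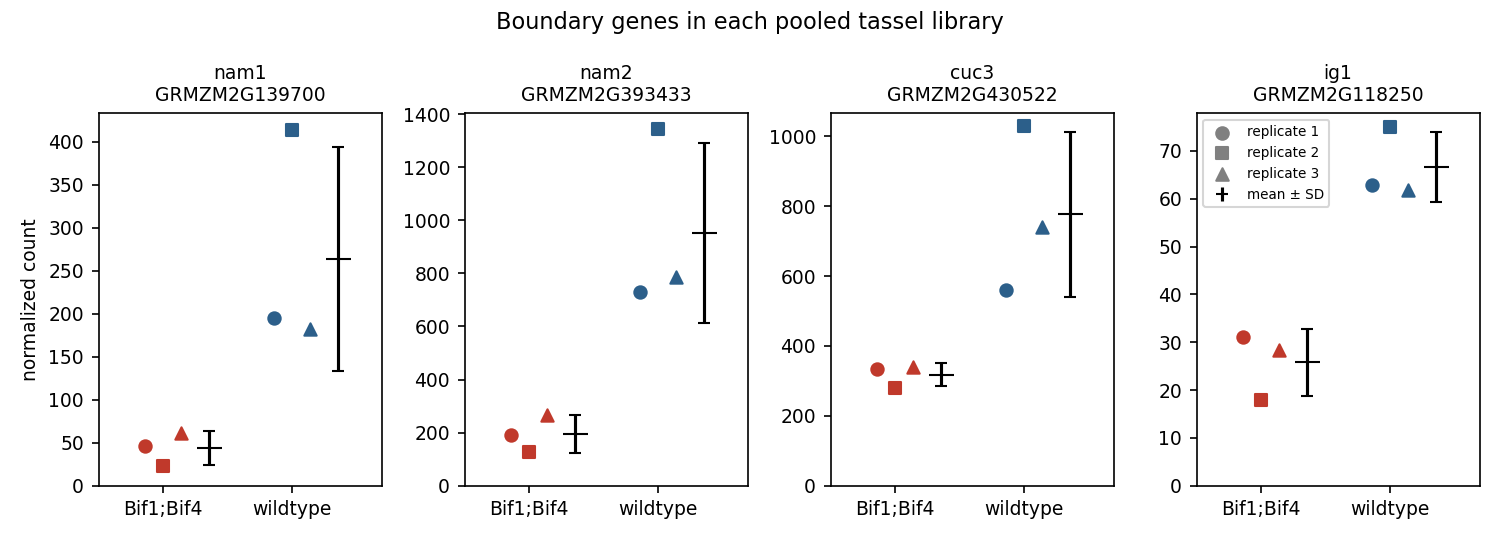
Normalized count of nam1, nam2, cuc3 and ig1 (vertical axes, linear from 0) in the 3 Bif1;Bif4 and 3 wildtype pools, where symbols mark the replicate and the bar the mean ± SD. Each mutant pool lies below each wildtype pool for every gene, wildtype replicate 2 is the highest wildtype pool and Bif1;Bif4 replicate 2 the lowest mutant pool.

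Thus 4 of 4 boundary genes fell, where 2.91% of all 21924 tested genes fell and 2.13% rose, and 4 of 4 had every mutant pool below every wildtype pool, as 14.2% of tested genes did. The median log2 fold change of all tested genes was 0.01. Ordered from the strongest fall, nam1 was 92nd of 21924 by its log2 fold change, nam2 119th, ig1 366th and cuc3 435th. With edgeR on the recovered reads all 4 also fell, at adjusted p of 0.031 for nam1, 0.026 for nam2, 0.023 for cuc3 and 0.033 for ig1. In the authors' deposited table the log2 fold changes were -1.50 for nam1, -1.69 for nam2, -1.07 for cuc3 and -0.85 for ig1, each smaller in size than the value given above. DESeq2 on the recovered reads gave -2.597 for nam1, -2.294 for nam2, -1.293 for cuc3 and -1.371 for ig1. The group means given above come from the counts of the same deposited table, so its smaller fold changes do not show smaller falls. Why the deposited fold changes were smaller was not tested. The authors' deposited table lists adjusted p of 1.7e-08, 1.2e-13, 1.7e-07 and 0.0046 for these genes in the same order.

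The fall was also seen relative to kn1 within each library, a comparison added after the values were seen. Per 1000 normalized counts of kn1, nam1 held 3.36 to 8.73 counts in Bif1;Bif4 and 19.7 to 47.9 in wildtype, and nam2 held 18.7 to 38.0 and 81.0 to 156. cuc3 held 41.1 to 48.2 per 1000 in Bif1;Bif4 and 62.3 to 119 in wildtype, and ig1 held 2.63 to 4.02 and 6.69 to 8.70. On this scale the log2 differences between genotypes were -2.26 for nam1, -1.98 for nam2, -0.94 for cuc3 and -1.06 for ig1, each with an exact two-sided permutation p of 0.1, the smallest that 3 against 3 pools can give.

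The 4 genes also shared the highest wildtype pool and the lowest mutant pool, while the order of the other pools differed between the genes. Wildtype replicate 2 was the highest wildtype pool for all 4, at 2.19 times the mean of the other wildtype pools for nam1, 1.77 times for nam2, 1.58 times for cuc3 and 1.20 times for ig1, against a median of 0.99 over all tested genes. The ratio of nam1 exceeded that of 96.3% of tested genes, that of nam2 94.0%, that of cuc3 92.0% and that of ig1 80.0%. Bif1;Bif4 replicate 2 was the lowest mutant pool for all 4, at 0.42 times the mean of the other mutant pools for nam1, 0.56 for nam2, 0.60 for ig1 and 0.83 for cuc3. Wildtype replicate 2 was the highest wildtype pool for 35.1% of all tested genes, and Bif1;Bif4 replicate 2 the lowest mutant pool for 34.6%. Both features together were met by 14.8% of all tested genes and by 27.3% of the 637 that fell. The part of wildtype replicate 2 in the size of the falls is given by the values without it above, and what set that pool apart was not tested.

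Ratios between the genes within a library, in which gene length cancels when genotypes are compared, did not overlap between genotypes where nam1 or nam2 was set against cuc3 or ig1. The log2 ratio of nam2 to cuc3 was -0.82, -1.13 and -0.34 in Bif1;Bif4 replicates 1 to 3 and 0.38, 0.38 and 0.09 in wildtype replicates 1 to 3, so that nam2 had fewer counts than cuc3 in each mutant pool and more in each wildtype pool. The mean ratio was -0.76 ± 0.40 in Bif1;Bif4 and 0.28 ± 0.17 in wildtype (SD, n = 3 each), a difference of -1.05. For nam1 to cuc3 the mean log2 ratio was -2.94 ± 0.56 in Bif1;Bif4 and -1.62 ± 0.36 in wildtype. The ratios of nam1 to ig1 and of nam2 to ig1 differed by -1.20 and -0.93, again with no overlap of the genotypes. Each of these 4 pairs had an exact two-sided permutation p of 0.1, the smallest this design allows, and 0.15 adjusted over the 6 pairs compared.

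Within each of these subsets the ratio overlapped between genotypes. For nam1 to nam2 the mean log2 ratio was -2.18 ± 0.22 in Bif1;Bif4 and -1.90 ± 0.20 in wildtype (difference -0.28, exact permutation p = 0.2, adjusted over the pairs 0.24). For cuc3 to ig1 it was 3.61 ± 0.26 in Bif1;Bif4 and 3.49 ± 0.32 in wildtype (difference 0.12, exact permutation p = 0.7, adjusted 0.7). These p-values do not show that the ratios were the same.

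**Figure D2:**
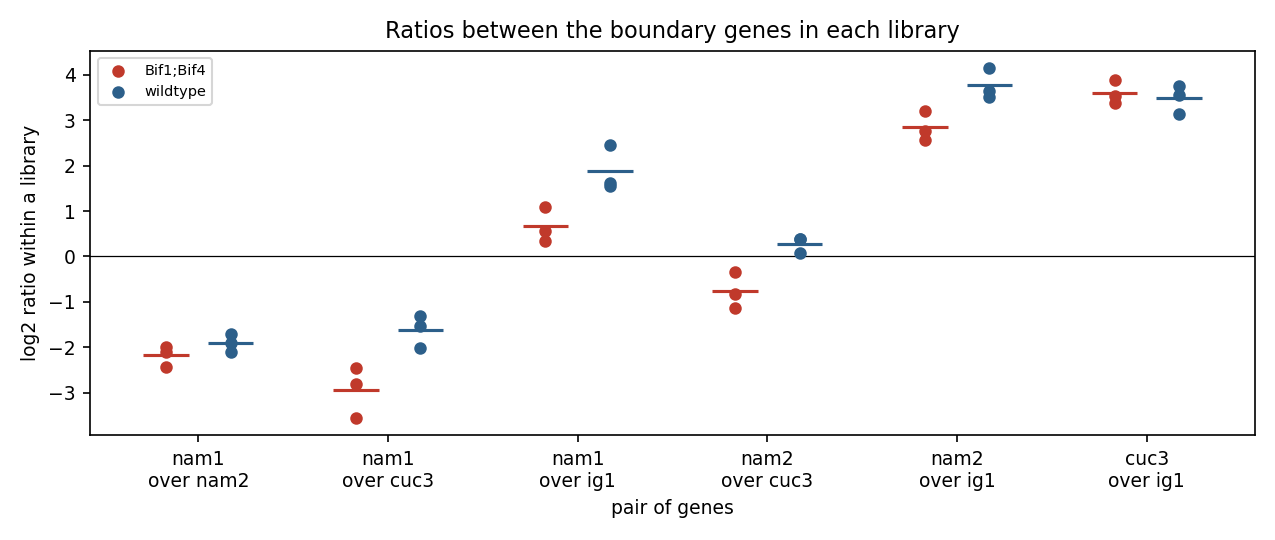
Log2 ratio of normalized counts (each with 1 added) within a library for the 6 pairs of boundary genes, where points are pools, bars are means, Bif1;Bif4 left of wildtype in each pair. The genotypes separate for the 4 pairs that set nam1 or nam2 against cuc3 or ig1 and overlap for nam1 over nam2 and cuc3 over ig1, and the height of a pair also depends on gene length.

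None of the 11 other tested genes with a NAC symbol passed, a count near the shares of all tested genes that fell (2.91%) and rose (2.13%), and whether they differ from nam1, nam2 and cuc3 was not tested. Of 24 such genes, 11 were tested, and 0 rose and 0 fell by limma, edgeR or DESeq2, with 1 at an unadjusted limma p under 0.05. Their log2 fold changes ran from -0.32 to 0.80, with a median of 0.09 beside 0.01 for all tested genes. The most abundant, NAC12 (GRMZM2G125777), was at 2564, 2438 and 2414 in Bif1;Bif4 and 2464, 2336 and 2368 in wildtype (log2 fold change 0.05, limma adjusted p = 0.73). The gene under the unadjusted threshold was NAC57 (GRMZM2G174070), named after its values were seen, at 240.0, 303 and 299 in Bif1;Bif4 and 366, 313 and 371 in wildtype (log2 fold change -0.32, limma adjusted p = 0.21). Wildtype replicate 2 was the highest wildtype pool for 8 of the 11, beside 35.1% of all tested genes.

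LOB-domain genes other than ig1 moved in both directions. Of 9 with a symbol of that family, 4 were tested: LOB14 and LOB15 rose, ial1 fell and 1 missed the threshold. Over all tested genes, 2.13% rose and 2.91% fell. The median log2 fold change of the 4 was 0.46. The fallen gene was ial1 (GRMZM2G133806), named for its likeness to ig1, at 16.5, 13.9 and 12.7 in Bif1;Bif4 and 58.4, 52.2 and 40.2 in wildtype. Its log2 fold change was -1.73 (SE 0.28, limma adjusted p = 0.013), and it was lost only without wildtype replicate 1 among the libraries left out (limma adjusted p = 0.053). Both ig1 and ial1 were thus low in every mutant pool, and reads shared by the pair are uncertain in the same way as for nam1 and nam2.

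The LOB-domain genes that rose were LOB14 and LOB15. LOB14 (GRMZM2G044902), the most abundant of the family list, was at 591, 591 and 475 normalized counts in Bif1;Bif4 and 229, 224 and 224 in wildtype, with no overlap (log2 fold change 1.28, SE 0.12, limma adjusted p = 0.0011). It rose whichever library was left out. LOB15 (GRMZM2G060544) was at 192, 466 and 198 in Bif1;Bif4 and 68.3, 90.6 and 42.3 in wildtype (log2 fold change 2.01, SE 0.42, limma adjusted p = 0.045). The LOB15 call was lost with edgeR (adjusted p = 0.055) and when any library but wildtype replicate 2 was left out (limma adjusted p up to 0.11).

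**Figure D3:**
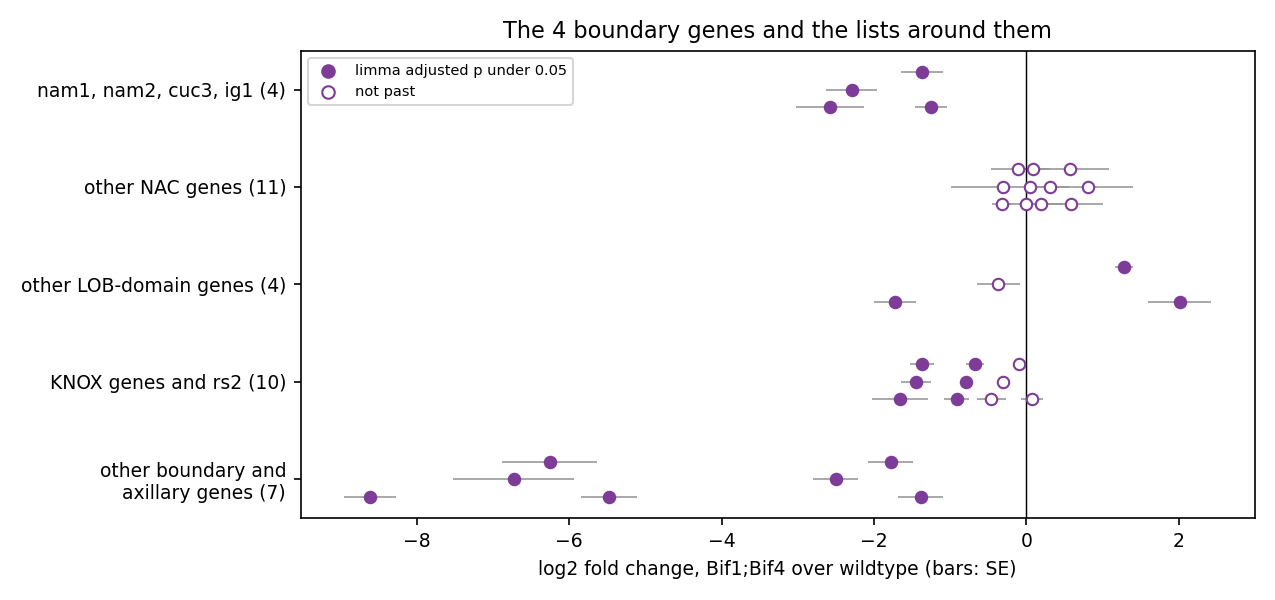
Log2 fold change of Bif1;Bif4 over wildtype (horizontal axis, bars are SE) for nam1, nam2, cuc3 and ig1 and for the tested genes of 4 lists around them, where filled points passed limma at adjusted p under 0.05. The 4 boundary genes lie between -2.57 and -1.25, the 11 other NAC genes between -0.32 and 0.80, and the LOB-domain genes on both sides of 0.

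KNOX homeobox genes, of which those of class I keep meristem cells undetermined, were examined with rs2. Among the 10 tested there were 6 that fell, 0 that rose and 4 that missed the threshold, with a median log2 fold change of -0.73. Of all tested genes, 2.91% fell and 2.13% rose. knox6 and knox7, which did not pass, may belong to class II, and without them 6 of 8 fell, with a median of -0.85. rs2 (GRMZM2G403620) itself was at 905, 690.3 and 909 in Bif1;Bif4 and 1279, 1875 and 1594 in wildtype (log2 fold change -0.92, limma adjusted p = 0.023), a call lost without any 1 of the Bif1;Bif4 libraries or without wildtype replicate 3 (limma adjusted p up to 0.085). The largest falls were those of knox8 (GRMZM2G135447, log2 fold change -1.66, limma adjusted p = 0.045) and lg4 (liguleless4, GRMZM2G094241, log2 fold change -1.45, limma adjusted p = 0.0092). lg4 fell whichever library was left out, and knox8 was lost without any 1 of the Bif1;Bif4 libraries or wildtype replicate 1 (limma adjusted p up to 0.13). kn1, the most abundant of the list, did not pass limma (log2 fold change -0.31, limma adjusted p = 0.073) or edgeR (adjusted p = 0.077). DESeq2 did call kn1 fallen (adjusted p = 0.0045). Without Bif1;Bif4 replicate 2 only 3 of the 10 fell. Wildtype replicate 2 was the highest wildtype pool for 8 of the 10, beside 35.1% of all tested genes.

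Genes that mark or shape boundaries and axillary meristems fell as well, 7 of 7 matched and tested, beside 2.91% of all tested genes. Their median log2 fold change was -5.48. Like the other lists, this list was chosen with earlier results of these data known, so its count is a description and no independent support. The list also named ba2, ra2, tsh1, tsh4, lof1, obo1 and tls1, which were not matched to a gene row by symbol. The largest falls were those of ra3 (ramosa3, GRMZM2G014729), at 4.86, 3.97 and 1.96 normalized counts in Bif1;Bif4 and 2279, 1129 and 1995 in wildtype, and BA1 (barren stalk1, GRMZM2G397518), at 5.83, 0 and 6.85 in Bif1;Bif4 and 419, 303 and 496 in wildtype. Both fell whichever library was left out (limma adjusted p = 7.3e-05 and 0.0090 over all libraries). The list was split. ra3, BA1, baf1 (GRMZM2G072274) and ra1 (GRMZM2G003927) held at most 7.83 counts in any mutant pool, whereas lg2 (GRMZM2G060216), lg1 (GRMZM2G036297) and bif2 (GRMZM2G171822) held at least 23.5, as the boundary genes held at least 17.9. The log2 fold changes of lg2, lg1 and bif2 were -2.50, -1.78 and -1.39, beside -2.57 for nam1, -2.29 for nam2, -1.37 for ig1 and -1.25 for cuc3. baf1, ra1, lg2, lg1 and bif2 were named after their values were seen. The bif2 call was lost without any library but wildtype replicate 2, and the lg1 call without Bif1;Bif4 replicate 2 or wildtype replicate 1 (limma adjusted p up to 0.12 and 0.054). Wildtype replicate 2 was the highest wildtype pool for 2 of the 7, near the 35.1% of all tested genes.

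Likeness of pattern was measured as the root mean square difference, over the 6 libraries, of log2 values centred on each gene's own mean, among 1809 genes with a symbol and a mean of at least 50 normalized counts. It is a description with no test, and it says nothing of shared function. The pattern includes the difference between genotypes, so genes chosen as nearest to a fallen gene are likely to have fallen too. Their calls, given here and for cuc3 and ig1 below, therefore add no independent support. nam1 and nam2 were nearer to each other (0.22) than to any of the 1809. Next for nam2 were bHLH114 (GRMZM2G095899, 0.28), dxs1 (GRMZM2G137151, 0.29), for an enzyme of plastid isoprenoid synthesis, and TD1 (thick tassel dwarf1, GRMZM2G300133, 0.36), a receptor kinase that limits meristem size. For nam1 the nearest were bHLH114 (0.45), ts2 (tasselseed2, GRMZM2G455809, 0.46), needed for pistil abortion in the tassel, and dxs1 (0.48). Of these, bHLH114, dxs1 and TD1 fell (limma adjusted p = 0.0086, 0.0023 and 0.019), the first pair whichever library was left out, and ts2 did not pass (log2 fold change -1.73, limma adjusted p = 0.13). The TD1 call was lost without wildtype replicate 3 (limma adjusted p = 0.061).

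cuc3 was nearest to ids1 (indeterminate spikelet1, GRMZM5G862109), an AP2-type gene that ends the spikelet meristem, at a distance of 0.09. ids1 was at 1197, 886 and 1131 normalized counts in Bif1;Bif4 and 1864, 2975 and 2344 in wildtype (log2 fold change -1.15, limma adjusted p = 0.022), a call lost without any 1 of the Bif1;Bif4 libraries or wildtype replicate 3 (limma adjusted p up to 0.077). The KNOX gene knox4 (gnarley1, GRMZM2G452178, 0.16) and rs2 (0.20) came next. ig1 was nearest to zmCL2-1 (GRMZM2G005552, 0.07), then to lg4 (0.14) and knox4 (0.16). knox4 thus stood among the 3 nearest of both cuc3 and ig1, at 457, 332 and 374 in Bif1;Bif4 and 850.0, 1186 and 974 in wildtype (log2 fold change -1.37, limma adjusted p = 0.0034).

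**Figure D4:**
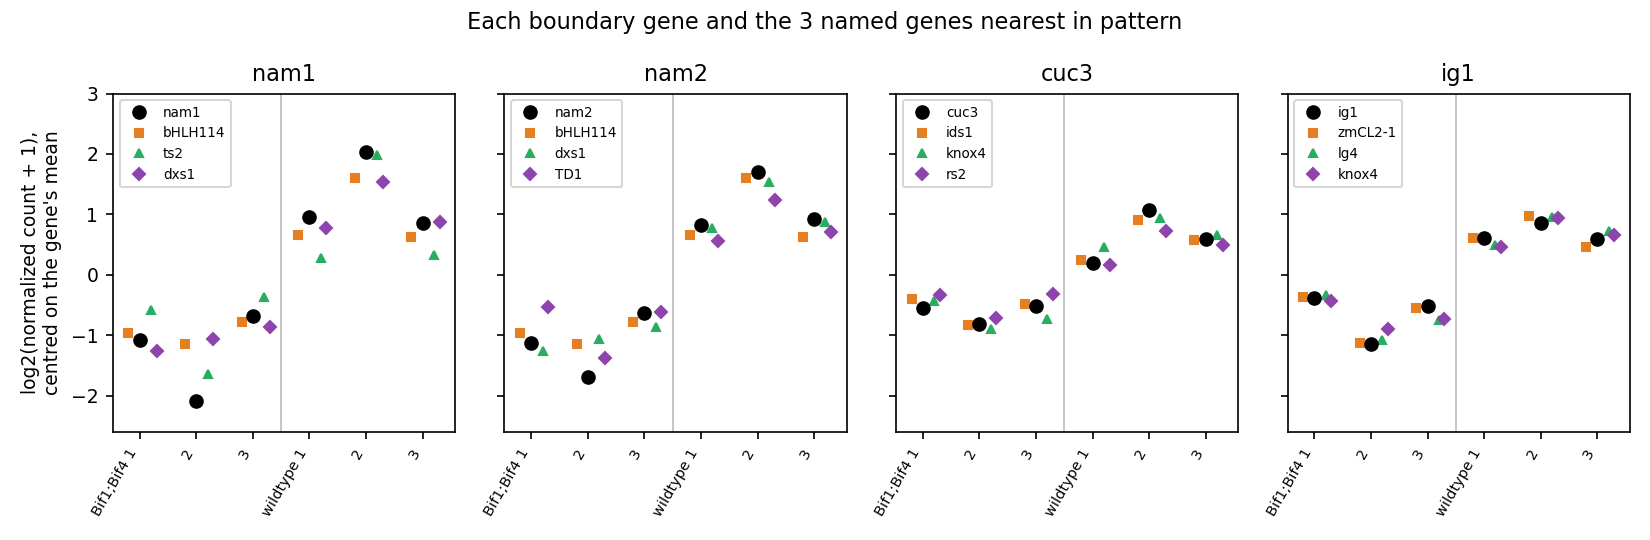
Log2(normalized count + 1) centred on each gene's mean over the 6 libraries (vertical axis) for each boundary gene in black and its 3 nearest named genes in colour, with Bif1;Bif4 pools left of wildtype pools. The spread of nam1 and nam2 between pools is wider than that of cuc3 and ig1, and wildtype replicate 2 is the highest point of each boundary gene.

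Rows for the precursors of miR164, the microRNA that trims CUC1 and CUC2 transcripts in Arabidopsis, held few reads in these mRNA libraries. Of 8 such rows, 6 were at 0 in every library and none passed the filter on low values. zma-MIR164d was at 8.75, 8.94 and 5.87 normalized counts in Bif1;Bif4 and 9.91, 5.49 and 6.19 in wildtype, with overlapping groups. A row at 0 may hide as many as 3 reads, equal to 2.92 to 2.98 normalized counts in Bif1;Bif4 and 2.75 to 3.30 in wildtype. Mature miR164 was not measured here.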

How the data were processed

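Per the labels' protocols, RNA was column-purified with DNase and made into stranded TruSeq mRNA libraries. The submitters' processing notes name Trimmomatic, TopHat2 2.1.1, HTSeq and DESeq2, with build, annotation and strand setting not given there. The deposited table holds normalized counts, a signal that the authors made by dividing reads by a size factor per library, the authors' log2 fold changes, Wald statistics (a score) and p-values. In each column 100% of values were whole multiples of a step (tolerance 1e-06 reads), so reads were recovered.

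The test was limma 3.58.1 (trend, robust) on log2(value + 1), for genes with at least 10 in at least 3 libraries, two-sided, with Benjamini-Hochberg adjustment over all 21924, and rose or fell means an adjusted p under 0.05. Folds on this scale understate changes of low genes. Alternatives were edgeR 4.0.16 (TMM) and DESeq2 1.42.0 on recovered reads, other filters, pseudocounts, centring, a block and leaving out libraries. Exact permutation tests used scipy 1.17.1. The scripts were tested on simulated data.

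The genes, lists and tests were chosen with earlier results of these data known. Named genes are the 4 boundary genes, BIF1, BIF4, the 2 strongest calls per direction and the most abundant gene of each list, and the 3 named genes nearest in pattern. Other names serve the tissue check or are said to be chosen after the values were seen. Lists were matched by symbol in RefSeq names of Zm-B73-REFERENCE-NAM-5.0, where 18476 of 39305 identifiers matched a single gene. That table gives nam1 and CUC2 as synonyms of GRMZM2G393433, which is called nam2 here, and had no entry for GRMZM2G139700 or GRMZM2G430522. Closest protein relatives, also part of the naming rule, and sequences were not analysed here.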

Additional observations from a re-analysis of the deposited data

How the results depend on the processing

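All 4 boundary genes kept their direction in every alternative, and none of median-centring, DESeq2, edgeR, both other filters or both pseudocounts ended a call. The comparison to kn1 was chosen after seeing the data. Leaving out a library gave log2 fold changes of -2.87 to -2.17 for nam1, -2.56 to -2.02 for nam2, -1.46 to -1.02 for cuc3 and -1.52 to -1.13 for ig1, with calls kept in 3, 4, 2 and 1 of the 6 cases. With fewer libraries fitted, all genes gave 167 to 776 risen and 282 to 627 fallen (the highest of each without wildtype replicate 2, and every other library left out gave at most 368 fallen), the other LOB-domain genes 1 to 2 risen and 0 to 1 fallen, the boundary and axillary list 5 to 7 fallen, and the KNOX list with rs2 3 to 6 fallen. DESeq2 called 1001 risen and 1117 fallen genes, and the cause was not tested. edgeR called 1 risen LOB-domain gene, and a minimum of 50 removed ial1, leaving 0 fallen. With the replicate number as a block the log2 fold changes of -2.57 for nam1, -2.29 for nam2, -1.25 for cuc3 and -1.37 for ig1 stayed and none of the 4 passed (limma adjusted p = 0.10, 0.090, 0.055 and 0.065). Across genes, the deviations of libraries with equal numbers had correlations of 0.07, -0.17 and -0.03. Only Bif1;Bif4 replicate 1 correlated best with the library of its own number. Bif1;Bif4 replicate 2 correlated best with wildtype replicate 1 (0.25) and Bif1;Bif4 replicate 3 with wildtype replicate 2 (0.26). No wildtype library correlated best with its own number. With 3 pools per genotype these values cannot decide whether equal numbers share a batch, and the labels state no pairing. ig1 rested on 18 to 82 reads per library, and the part of depth in its lost calls was not tested.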
